A study of Gallus gallus with 4 samples.

Results

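The sites described here are the binding sites of CTCF on chromosome 2 of the chicken genome, as listed for 3 chromatin immunoprecipitation sequencing (ChIP-seq) libraries. All peaks on that chromosome in the 3 deposited lists were taken, and peaks that shared at least 1 bp were merged into sites. This gave 3013 sites out of 15733 in the whole genome. They came from 895 of the 8768 non-induced HD3 peaks, 470 of the 4820 induced HD3 peaks and 2883 of the 13574 DT40 peaks. The chromosome was chosen by its measured numbers of DT40 and non-induced HD3 peaks, so every comparison of DT40 with HD3 below is a description and not a finding. Comparisons of the HD3 states with each other did not enter that choice. The non-induced HD3 counts did enter it, and they also helped to set the segments described below. HD3 is an erythroblast line, clone A6 of the line LSCC, transformed by avian erythroblastosis virus. It was profiled without induction and after erythroid differentiation was induced with iso-H-7, a kinase inhibitor, in HEPES-buffered medium under air. The treatment protocol also gives an induction temperature, which is garbled in the record and not printed here. DT40 is a lymphoid line and was grown without that treatment, with β-mercaptoethanol in its medium. The same custom rabbit antibody against the N-terminal region of chicken CTCF was used for each. The 1 input library of the series came from HD3 and was not analysed here. Each condition had 1 library, so no difference below has a replicate check and no p-value was computed. All intervals are exact 95% intervals that cover counting error only and take peaks as independent.

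CTCF is a zinc finger protein that binds a long, conserved DNA motif and stays on many of its sites in most cell types. At these sites it can stop the extrusion of chromatin loops by cohesin, and so it marks loop anchors, domain borders and insulators. In erythroid and lymphoid cells such sites flank well-studied loci, among them the globin and immunoglobulin genes. Chicken chromosome 2 is a macrochromosome, next in size to chromosome 1, and macrochromosomes carry fewer genes per length than the small microchromosomes. The coordinates below are those of the galGal4 build, counted from 1. A peak missing from a list was not called there, which does not show that the site was empty, because the lists hold no reads and the depth of each library is unknown.

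On chromosome 2, CTCF peaks were much denser in the lymphoid list than in either erythroid list. The chromosome is 148.8 Mb long as far as the peaks reach. Non-induced HD3 had 6.01 peaks per Mb on it (interval 5.63 to 6.42), induced HD3 had 3.16 (2.88 to 3.46) and DT40 had 19.4 (18.7 to 20.1). It made up 14.8% of the summed chromosome spans and held 10.2%, 9.75% and 21.2% of the respective lists. The HD3 densities were below those of its neighbours in size. Chromosome 1 had 6.82 and 3.44 peaks per Mb, and chromosome 3 had 7.33 and 3.61, in non-induced and induced HD3. For DT40 those chromosomes had 9.56 and 8.10 peaks per Mb. There were thus 3.22 DT40 peaks for each non-induced HD3 peak on chromosome 2 (interval 2.99 to 3.48), 1.40 on chromosome 1 and 1.10 on chromosome 3. All sequences other than chromosome 2 together gave 1.36 (interval 1.32 to 1.40). They were not all alike. Chromosomes 11, 16 and 20 had ratios of 2.43, 5.88 (47 to 8 peaks) and 2.98. The remaining numbered chromosomes and Z had ratios from 1.10 to 1.66. At the end of chromosome Z, from 81598101 to 82362987, DT40 had 62 peaks and non-induced HD3 had 0. The DT40 list was 1.55 times as long as the non-induced HD3 list overall. When each list was limited to its 4820 highest-scored peaks, the length of the shortest, the ratio was 1.99 on chromosome 2 (interval 1.77 to 2.23) and 0.900 on the other sequences.

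The peaks themselves had lengths close to those of their lists. The non-induced HD3 peaks had a median of 1216 bp, the induced HD3 peaks 646 bp and the DT40 peaks 754 bp, against 1217, 651 and 704 bp on all other sequences. The spacing differed more than the length. The median gap to the next peak was 78.6 kb for non-induced HD3, 166 kb for induced HD3 and 17.0 kb for DT40. Of the DT40 peaks, 55.8% (interval 53.9 to 57.6) had another DT40 peak within 10 kb, against 21.2% (18.6 to 24.1) of non-induced and 11.9% (9.13 to 15.2) of induced HD3 peaks with a neighbour in their own list. The lists differed in this over the whole genome too, with 45.3% for DT40, 27.6% for non-induced and 18.5% for induced HD3. On chromosome 1 from 138835056 to 195275492 the DT40 share was 51.5%. Gaps and neighbour shares depend on the density of peaks, which entered the choice of the chromosome, and were not adjusted for it.

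In the full lists, most sites on the chromosome were called in DT40 and in neither HD3 state. These were 2077 of the 3013 sites, or 68.9% (interval 67.2 to 70.6), beside 41.9% of all sites in the genome and 35.5% of sites on the other sequences. With lists of equal length, taken from the top by score, they were no longer the majority, at 46.0% (interval 43.0 to 49.0). The share on the other sequences was not computed for these shorter lists, so 46.0% has no like background here. Sites called in all 3 lists numbered 371, or 12.3% (interval 11.2 to 13.5), beside 23.4% of all sites and 26.0% on the other sequences. Their density was close to that of the chromosomes nearest in size, with 2.49 per Mb on chromosome 2, 2.56 on chromosome 1 and 2.71 on chromosome 3. A further 389 sites (12.9%) were called in non-induced HD3 and DT40, beside 20.0% on the other sequences. Another 33 were called in induced HD3 and DT40 (1.10%), near the 1.19% on the other sequences. Sites missing from DT40 were few. In both HD3 states 54 were called (1.79%, beside 5.23% on the other sequences). Non-induced HD3 alone had 81 (2.69%, beside 10.6%) and induced HD3 alone had 8 (0.266%, beside 1.40%). The many sites called in DT40 alone enlarge the total and so lower these shares.

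The surplus of DT40 peaks was not spread evenly along the chromosome. To locate it, the peaks of non-induced HD3 and DT40 were put in order and divided where the proportion of the lists changed, by a likelihood method with a fixed penalty for each division. This gave 2 change points and 3 segments. A segment was called an excess segment when its ratio was at least 2 times that of all other sequences, that is, at least 2.72 DT40 peaks per non-induced HD3 peak. By this rule chromosomes 16 and 20, the end of chromosome Z and the sequence LGE64 (64 to 1 peaks) were in excess as well. The first segment of chromosome 2, from 15546 to 34805676, was not in excess. It held 345 DT40, 271 non-induced HD3 and 147 induced HD3 peaks, a DT40 to non-induced HD3 ratio of 1.27 (interval 1.08 to 1.498). With lists of equal length the ratio fell below 1, to 0.767 (0.594 to 0.988). The other sequences had 1.36 in the full lists and 0.900 in the equal ones, both above the segment and within its intervals. The middle segment, from 34808538 to 134968086, held 1663, 547 and 279 peaks and had a ratio of 3.04 (2.76 to 3.35). The last segment, from 135005656 to the final peak at 148795044, held 875, 77 and 44 peaks and had a ratio of 11.4 (8.99 to 14.5). The excess so defined covered 76.6% of the chromosome and ran to its end. Its extent depended on the setting: it covered 14.2% with a weaker penalty of 2 ln n (n being the number of peaks, with 3 ln n used here), 9.28% with 6 ln n and 35.5% as runs of 1 Mb windows.

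Over whole segments the DT40 density rose, while the HD3 densities were lower in the middle and last segments than in the first. DT40 density was 9.91 peaks per Mb in the first segment, 16.6 in the middle and 63.4 in the last. Non-induced HD3 density was 7.79, 5.46 and 5.58 peaks per Mb in the same order, and that of induced HD3 was 4.22, 2.78 and 3.19. In the first segment the median window of 1 Mb held 9 DT40 and 8 non-induced HD3 peaks. In the middle segment it held 15.5 and 5, and in the last segment 49.5 and 5. DT40 had at least 2 times as many peaks as non-induced HD3 in 6 of 35 windows of the first segment, in 74 of 100 windows of the middle segment and in 14 of 14 windows of the last. Over the whole chromosome this was so for 94 of 149 windows, or 63.1%, beside 24.8% of windows in the genome and 18.1% of windows on other sequences. The segments were divided by the proportion of these same lists, so the window counts per segment partly restate that division.

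**Figure D1:**
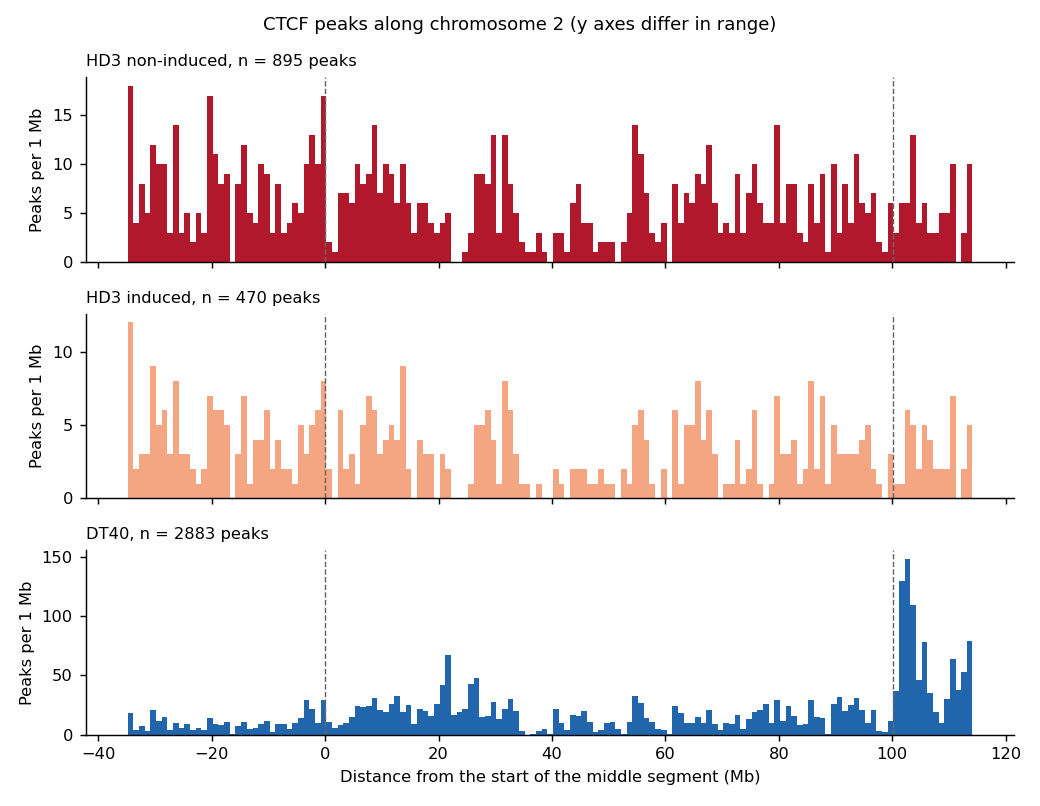
CTCF peaks per 1 Mb window along chromosome 2 in the 3 libraries, plotted against the distance in Mb from the start of the middle segment, with dashed lines at both change points and a different y range in each panel. The HD3 panels stay at or below 18 peaks per window throughout, whereas DT40 rises to 148 beyond the second line.

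The start of the excess was gradual, and its position depended on the peaks compared. At the first change point itself DT40 did not rise. In the 5 Mb before it there were 96 DT40, 53 non-induced HD3 and 25 induced HD3 peaks, and in the 5 Mb after it 60, 26 and 15. In successive 5 Mb windows from the beginning of the chromosome, the DT40 to non-induced HD3 ratio was 1.13, 1.18, 1.16, 1.00 and 1.08, then 1.46 between 25 and 30 Mb and 1.89 between 30 and 35 Mb. The next windows gave 2.17, 2.56, 2.98 and 4.23. The peaks just outside the change point were a non-induced HD3 peak at 34804382 to 34805676 and a DT40 peak at 34804474 to 34805573, which overlap each other. Just inside lay a DT40 peak at 34808538 to 34809298, with a non-induced HD3 peak following at 34817981 to 34820186. With a penalty of 2 ln n the first change point moved to 26.8 Mb, and with induced HD3 as the reference it moved to 29.1 Mb. With equal numbers of top-scored peaks it lay at 28.9 Mb, with a score of at least 100 at 26.8 Mb and with peaks within 10 kb merged into clusters at 46.6 Mb. A penalty of 6 ln n left no change point before 135.0 Mb.

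The second step was steeper than the first, though the dense DT40 stretch began past the change point itself. In the 5 Mb before it there were 49 DT40 peaks and 21 non-induced HD3 peaks, and in the 5 Mb after it 468 and 32. Induced HD3 had 11 peaks before and 15 after. The last DT40 peak outside lay at 134967098 to 134967865, on a site that was also called in both HD3 states. The first inside lay at 135005656 to 135006309 and the next at 135017805 to 135018689. A gap of 706 kb followed, the largest between DT40 peaks of the last segment, up to a peak at 135724634 to 135725517. DT40 counts in the 1 Mb windows from 134 Mb on were 12, 37, 129, 148, 109, 46 and 78, while non-induced HD3 had 6, 3, 6, 6, 13, 4 and 6. DT40 then fell to 35, 19 and 10 peaks per window up to 144 Mb and rose again to between 30 and 79 in the windows up to the end. This change point was found at the same peak with both other penalties and with induced HD3 as the reference. It was not found with a score of at least 100, with equal numbers of top-scored peaks or with clusters, where a single excess ran to the end of the chromosome. With the segment bounds held, the ratio in the last segment was 7.61 (interval 5.28 to 11.3) at a score of at least 100. It was 4.15 (2.82 to 6.27) with equal numbers and 4.56 (3.52 to 5.96) with clusters.

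The middle segment was itself uneven. Its 5 Mb windows had ratios between 1.55, from 100 to 105 Mb, and 16.7 (interval 8.86 to 35.5), from 55 to 60 Mb. In the latter window DT40 had 167 peaks, non-induced HD3 had 10 and induced HD3 had 5. With the penalty of 2 ln n the stretch from 54196434 to 61549454 formed a segment of its own, with 258 DT40, 15 non-induced and 6 induced HD3 peaks. It combined a high DT40 density, 34.9 peaks per Mb, with a low density in non-induced HD3, 2.03 per Mb. With that penalty the parts on either side had ratios of 2.46 and 2.60, below the threshold, and the excess was limited to this stretch and the last segment. Between 70 and 75 Mb all lists were sparse, with 10 DT40, 6 non-induced and 2 induced HD3 peaks.

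The makeup of the sites differed between segments. Sites called in DT40 alone rose from 3.88 per Mb in the first segment (interval 3.25 to 4.59) to 11.4 in the middle (10.8 to 12.1) and 57.6 in the last (53.6 to 61.7). They were 32.4%, 66.9% and 90.1% of the sites there. Chromosomes 1 and 3 had 4.52 and 2.80 such sites per Mb, so the first segment lay between them. Chromosome 1 was itself uneven. It had 2.97 such sites per Mb before 138835056 and 8.35 from there to 195275492, or 27.6% and 59.8% of the sites there. Sites called in all 3 lists changed less, with 3.10, 2.31 and 2.32 per Mb in the first, middle and last segments. Sites of non-induced HD3 alone were rarer in the excess. They numbered 1.32 per Mb in the first segment (interval 0.968 to 1.76), 0.279 in the middle (0.186 to 0.404) and 0.507 in the last (0.204 to 1.04). Chromosomes 1 and 3 had 1.47 and 1.61, and the stretch of chromosome 1 from 138835056 to 195275492 had 0.744.

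**Figure D2:**
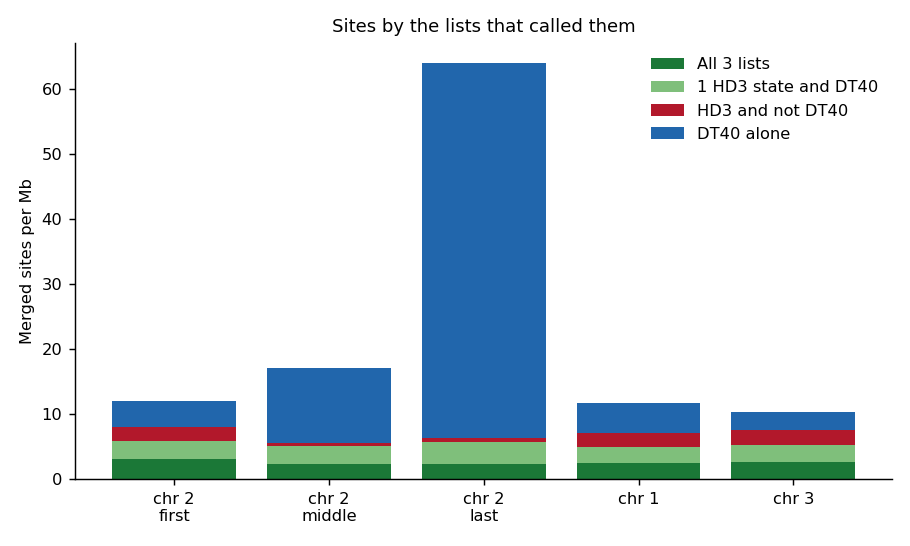
Merged sites per Mb in the 3 segments of chromosome 2 and on chromosomes 1 and 3, stacked by the lists that called them. Sites called in DT40 alone make up 57.6 per Mb of the last segment, while the sites shared with HD3 stay near the level of chromosomes 1 and 3.

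Most erythroid sites were lymphoid sites as well, in the excess more so than in the first segment. Of the non-induced HD3 peaks on the chromosome, 760 of 895 (84.9%, interval 82.4 to 87.2) were called in DT40, beside 75.5% in the whole list and 74.4% on other sequences. The share was 73.1% (interval 67.4 to 78.3) in the first segment, 90.1% (87.3 to 92.5) in the middle and 89.6% (80.6 to 95.4) in the last. Induced HD3 peaks were called in DT40 in 78.9% (interval 71.4 to 85.2), 89.2% (85.0 to 92.6) and 97.7% (88.0 to 99.9) of cases, beside 81.0% in the whole list and 80.3% on other sequences. In the last segment that was 43 of 44 peaks. In the other direction, DT40 peaks were called in non-induced HD3 in 58.8%, 30.1% and 8.00% of cases, beside 50.1% in the whole list and 56.3% on other sequences. In induced HD3 they were found in 33.6%, 14.9% and 4.80% of cases, beside 28.7% and 32.6%.

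The segments differed most in sharing among weak erythroid peaks. Non-induced HD3 peaks were split into 4 classes of equal size by score in their whole list, so that sharing could be compared at like score. In the lowest class, 54.0% (34 of 63, interval 40.9 to 66.6) were called in DT40 in the first segment, 89.0% (137 of 154, 82.9 to 93.4) in the middle and 87.5% (28 of 32, 71.0 to 96.5) in the last. On all other sequences the share in that class was 59.1% (interval 56.9 to 61.3). In the highest class the shares were 83.9% (52 of 62) in the first segment, 92.7% (89 of 96) in the middle and 100% (11 of 11, interval 71.5 to 100) in the last, against 88.1% elsewhere. The intervals of the first and the middle segment were apart in the lowest class and overlapped in the highest. The segments were set by the numbers of DT40 and non-induced HD3 peaks, so sharing between these lists is not independent of that division. Shares in the highest class also had less room to differ.

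At sites called in both cell types, the DT40 peaks in the excess also ranked higher than the HD3 peaks did. The 6619 sites of the genome called in non-induced HD3 and DT40 were ranked among themselves by the score in each list, from 0 for the lowest to 100 for the highest, and the HD3 rank was subtracted from the DT40 rank. In the first segment the median difference over 198 sites was -1.24 percentile points (quartiles -16.0 and 11.4). In the middle segment it was 20.2 over 493 sites (4.50 to 37.5), and in the last 32.4 over 69 sites (11.6 to 57.7). The DT40 rank was the higher one at 45.5% of shared sites in the first segment (interval 38.4 to 52.7), 82.2% in the middle (78.5 to 85.4) and 88.4% in the last (78.4 to 94.9). On all sequences other than chromosome 2 the median difference was -2.02, and on chromosomes 1 and 3 it was -1.99 and -6.31. A call in DT40 requires a score above the caller's minimum, so these ranks are not independent of the counts that set the segments.

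The median rank difference changed sign before the change point at 34.8 Mb. Its order relative to those found at 26.8, 28.9 and 29.1 Mb under other settings could not be told. In 1 Mb windows it was -14.3 over 7 sites in the window from 26000001. The windows from 27000001, 28000001 and 29000001 had medians of 5.12, 15.3 and 17.3, over 3, 1 and 3 sites. In the 5 Mb windows from the beginning the median difference was -2.98, -10.3, -5.70, -4.68, -11.7 and -1.38, each over 15 to 33 sites. Between 30 and 35 Mb, where the ratio of peak numbers was also higher than before, it was 16.3 over 51 sites, and every later window had a median above 0. The highest were 49.7 between 55 and 60 Mb, over 10 sites, and 45.0 between 135 and 140 Mb, over 31 sites. The share of non-induced HD3 peaks called in DT40 rose between the same 5 Mb windows, from 62.5% (15 of 24) between 25 and 30 Mb to 92.7% (51 of 55) between 30 and 35 Mb. Chromosome 1 was also divided, into 2 segments. In the second, from 138835056 to 195275492, the DT40 to non-induced HD3 ratio was 2.42 (interval 2.11 to 2.78), below the threshold for an excess. Its shared sites had a median rank difference of -6.86 in its first segment and 10.5 in its second.

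**Figure D3:**
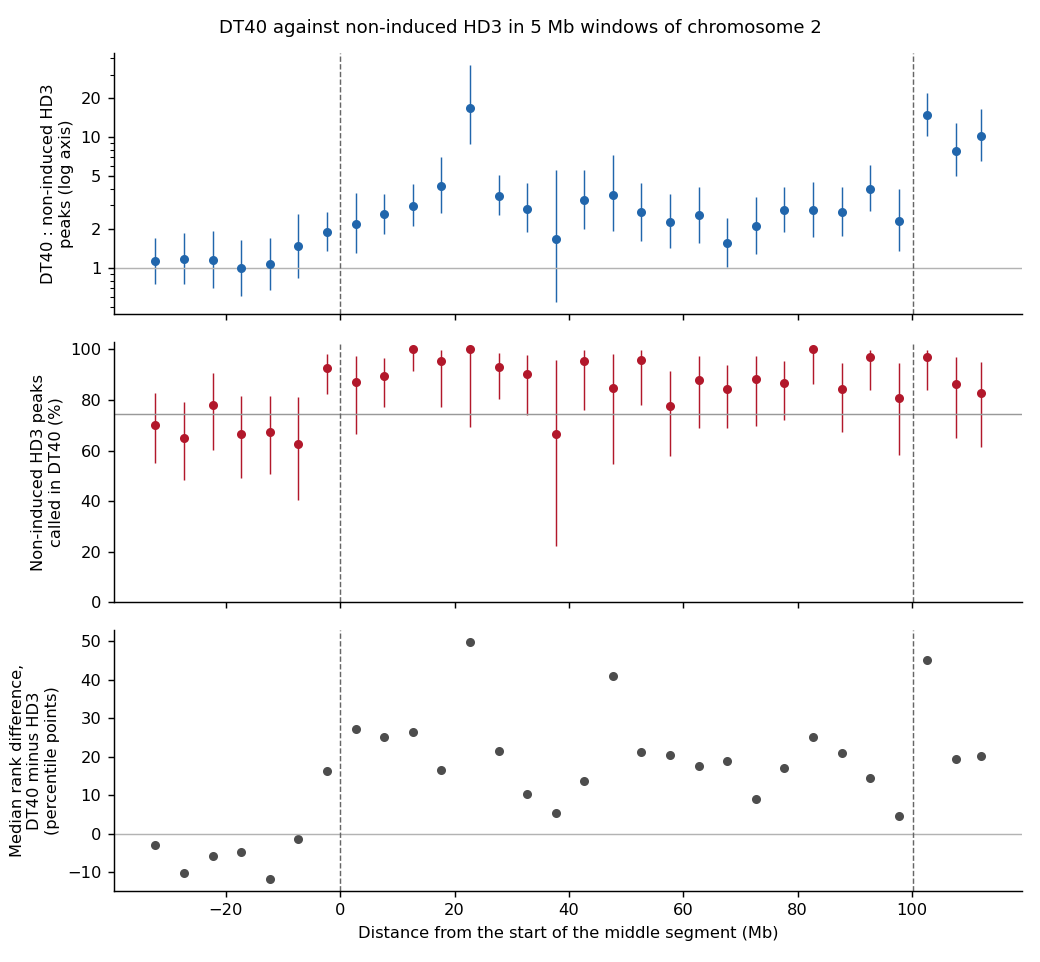
DT40 against non-induced HD3 in 5 Mb windows of chromosome 2, plotted against the distance in Mb from the start of the middle segment: the ratio of peak numbers on a log axis, the percentage of HD3 peaks called in DT40, and the median rank difference at shared sites. Bars are exact 95% counting intervals, dashed lines mark the change points and the grey line in the middle panel is the 74.4% of all other sequences. All 3 measures are higher in most windows right of 0 than in the 6 leftmost windows.

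Within the DT40 list, chromosome 2 held more than its 14.8% of the spans at every score level, and most among low scores. It held 29.8% (interval 27.4 to 32.4) of the lowest-scored 10% of all DT40 peaks and 17.3% (15.3 to 19.4) of the highest-scored 10%. For non-induced HD3 these shares were 11.6% and 5.93%, and for induced HD3 10.6% and 6.85%. The segments differed in this respect. The median score percentile in the whole DT40 list was 49.2 for peaks of the first segment, 52.3 for the middle and 26.7 for the last. In the last segment 76.7% of the DT40 peaks were in the lower-scored 50% of their list. They made up 12.7% of the lowest-scored 10% of the list and 3.53% of the highest-scored 10%. DT40 peaks with no HD3 call had a median percentile of 29.5 in the first segment, 36.6 in the middle and 23.0 in the last, whereas those with an HD3 call had 62.1, 79.5 and 85.0. Over the whole DT40 list these medians were 33.0 without and 67.5 with an HD3 call. In the last segment 33 of the 80 DT40 peaks with an HD3 call (41.25%) were in the top 10% of the list. The share of such peaks in the whole list was 17.5%. Of the 795 without an HD3 call, 15 were in the top 10% (1.89%), close to the 2.08% in the whole list. HD3 peaks of the last segment had median percentiles of 36.2 and 38.4 in the non-induced and induced lists.

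**Figure D4:**
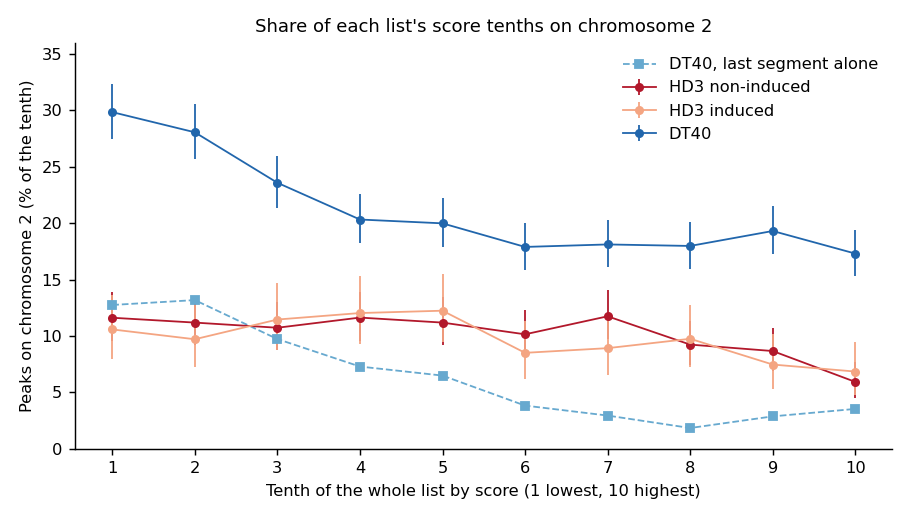
Percentage of the peaks in each of 10 score classes of a whole list that lay on chromosome 2, for the 3 libraries and for the last segment in DT40. Bars are exact 95% counting intervals. DT40 lies above both HD3 lists in every class, with 29.8% in the lowest and 17.3% in the highest, and the last segment has 12.7% and 3.53%.

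The DT40 peaks of the last segment were crowded. There 82.1% of DT40 peaks (interval 79.4 to 84.6) had another within 10 kb, against 47.0% in the middle and 31.3% in the first segment. Their median gap was 6.72 kb, and they covered 5.28% of the segment, against 1.35% of the middle one. Their median length was 750 bp, and 2 of the 875 were longer than 3000 bp. Neighbour shares, gaps, coverage and the window counts below depend on peak density, which set the segments. They were not adjusted for it. Of the 34 windows of 100 kb on the chromosome with at least 10 DT40 peaks, 32 lay in the last segment, and no such window reached 10 peaks in either HD3 list. The densest were 138100001 to 138200000 with 27 DT40 peaks, 136100001 to 136200000 with 24 and 138000001 to 138100000 with 21. In the same windows non-induced HD3 had 1, 0 and 3 peaks and induced HD3 had 1, 0 and 0. The densest windows of non-induced HD3 were 32300001 to 32400000 and 89700001 to 89800000, with 6 peaks each, and 14900001 to 15000000 with 5. DT40 had 8, 9 and 5 peaks there. Induced HD3 reached at most 3 peaks, and the first such windows along the chromosome began at 4300001, 4700001 and 5200001.

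After induction the HD3 list was shorter in every segment, by shares whose intervals overlapped. Relative to the list before induction, the number of peaks was 54.2% in the first segment (interval 44.1 to 66.5), 51.0% in the middle (44.0 to 59.0) and 57.1% in the last (38.5 to 83.8), and 55.3% on all other sequences. Of the non-induced peaks on the chromosome, 47.5% (425 of 895, interval 44.2 to 50.8) were called after induction, beside 50.2% in the whole list and 50.5% on other sequences. The segments gave 49.8% (interval 43.7 to 55.9), 47.0% (42.7 to 51.3) and 42.9% (31.6 to 54.6). Of the induced peaks, 91.3% (interval 88.4 to 93.7) were called before induction, beside 92.3% in the whole list and 92.4% on other sequences. The last segment was lowest, with 34 of 44 (77.3%, interval 62.2 to 88.5), against 92.8% (89.1 to 95.6) in the middle. Its 10 sites called in induced and not in non-induced HD3 were all DT40 sites (interval 69.2 to 100%). Over the chromosome, 33 of 41 such sites (80.5%, interval 65.1 to 91.2) were DT40 sites, against 45.9% (40.4 to 51.4) on other sequences. The chromosome and its segments were chosen partly by their non-induced HD3 and DT40 calls, so these shares are not independent of that choice. At sites called in both HD3 states, the median rank difference, induced minus non-induced, was 0.34 in the first segment, 3.23 in the middle and 5.04 in the last (33 sites). On other sequences it was 0.148. The induced rank was the higher one at 51.9% (interval 43.1 to 60.5), 57.2% (50.9 to 63.3) and 60.6% (42.1 to 77.1) of these sites. These intervals overlapped, and the share on other sequences was 50.6%.

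The strongest erythroid sites of the chromosome were also strong lymphoid sites. The 5 highest-scored peaks were the same 5 sites in both HD3 states, and all were called in DT40. The site at 130360328 to 130361729 ranked 7 in the whole non-induced list, 10 in the induced list and 10 in DT40. The site at 32079953 to 32081361, in the first segment, ranked 8 in DT40, 29 in non-induced HD3 and 52 after induction. A pair of sites near the beginning of the chromosome, at 482814 to 484150 and 503692 to 505047, ranked 41 and 31 before induction and 7 and 13 after it. The fifth, at 100822888 to 100824411, ranked 66 and 57. The highest-scored DT40 peak, at 137548727 to 137550872 in the last segment, ranked 5 in its list, and it was called in both HD3 states at score percentiles of 98.9 and 95.2.

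Among sites called in DT40 alone, the highest-scored lay at 57805886 to 57808685 (percentile 99.9 of the DT40 list) and 56298762 to 56304868, a peak of 6107 bp. Both fall in the DT40-rich stretch of the middle segment. The next 3 were neighbours close to the end of the chromosome, at 148508261 to 148509577, 148498036 to 148500026 and 148488435 to 148491843. Of the HD3 sites with no DT40 call, the highest-scored lay at 94660391 to 94661706, at percentiles of 94.4 in non-induced and 91.1 in induced HD3, and the next at 15242050 to 15243376, 134681974 to 134683386, 14169076 to 14170853 and 15266076 to 15268090. All 5 were called in both HD3 states and 3 of them lay in the first segment. The highest-scored sites called before and not after induction, at 24057798 to 24059271, 89660734 to 89661999 and 40367621 to 40368878, had non-induced percentiles between 83.6 and 84.9 and were DT40 sites. The highest-scored of those called after induction and not before had induced percentiles between 44.7 and 46.1, at 131268881 to 131269333, 141022774 to 141023730 and 147856017 to 147856997. The last 2 of these were DT40 sites in the last segment.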

How the data were processed

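CTCF ChIP-seq peak lists of 3 chicken libraries were analysed, with groups taken from the sample titles. Per the submitters' processing notes, CASAVA 1.8.2, Bowtie2 and MACS were used with build galGal4. The sources used here do not give parameters or the control of each MACS run. Each deposited list gives 1 library's peaks with a MACS score per peak, which is the authors' own value. The deposited score has an unstated scale and a minimum of 50.0. It was used to rank or filter peaks within 1 list. In 1 alternative setting the same minimum of 100 was applied to all 3 lists, whose scores may not share 1 scale. No depth is known.

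Peaks sharing 1 bp were merged. Spans are the largest peak end in any list. Segments came from a Bernoulli likelihood segmentation of ordered peaks, with a penalty of 3 ln n per change point and at least 20 peaks per segment. The merging and the segmentation were tried on simulated data. All 3000 simulated sites were placed in their class, and 39 of 40 change points were found within 100 peaks. Of 20 simulated vectors without a change, 0 were split. The simulated sites were spaced apart, and the simulated peaks were independent, with segment sizes like those found here. The trial therefore did not cover clustered peaks like those of the last segment. Shares and ratios carry Clopper-Pearson and densities Poisson intervals. Named sites were the 5 highest-scored peaks per list, the 5 highest-scored sites called in DT40 alone and in HD3 and not in DT40, 3 for each HD3 state and not the other, the 3 densest 100 kb windows per list, and the peaks next to each change point. Members, lists and settings were chosen with earlier results of these data known. Genes and sequences are not named, because no galGal4 annotation or sequence was used. Python 3.11.15 was used. Packages were SciPy 1.17.1, pandas 2.3.3, matplotlib 3.10.9 and NumPy 2.4.6.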

Additional observations from a re-analysis of the deposited data

How the results depend on the processing

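No paired analysis was possible because there is 1 library per group, so no replicate could be left out either. Of the alternative values computed, 54 stayed within the counting interval (1 Mb for positions), 47 moved and 2 were ratios that crossed 1. The segment ratios under other lists were chosen after seeing the data. In the main setting, DT40-only peaks of the chromosome had a median percentile of 30.0. In the main excess 90.1% of non-induced HD3 and 22.5% of DT40 peaks were shared, and the induced to non-induced ratio was 0.518. Percentiles under other lists were taken within those lists. A score of at least 100 gave densities of 2.98, 1.07 and 9.23 peaks per Mb (non-induced HD3, induced HD3, DT40), 8.99% of sites in all 3 lists, a median percentile of 40.6 for DT40-only peaks and an excess from 26.8 Mb over 82.0% of the span. In it 84.8% of non-induced HD3 peaks were called in DT40 and the induced to non-induced ratio was 0.353. The middle and last ratios were 3.54 and 7.61. Lists limited to equal numbers by score gave 2.98 and 5.93 peaks per Mb (non-induced HD3, DT40), a ratio of 1.99, 46.0% of sites in DT40 alone, 22.1% in all 3 lists, a percentile of 37.7 and an excess from 28.9 Mb over 80.6%. Sharing in it was 79.1% of HD3 and 31.6% of DT40 peaks. The segment ratios were 0.767, now below 1, then 2.39 and 4.15, with 0.900 on other sequences, and the induced to non-induced ratio turned to 1.08, which follows from lists made equal. Clusters gave 5.34 and 12.2 per Mb, a ratio of 2.28, 57.5% and 18.5% of sites in DT40 alone and all 3 lists, an excess from 46.6 Mb over 68.6%, 31.3% of DT40 peaks shared in it, and middle and last ratios of 2.42 and 4.56. A penalty of 2 ln n gave an excess from 54.2 Mb over 14.2% with 7.50% of DT40 peaks shared, and 6 ln n one from 135.0 Mb over 9.28% with 8.00%. Induced HD3 as reference gave 29.1 Mb and 80.4%. Runs of 1 Mb windows gave 30.1 Mb, 35.5% of the span, 95.3% of HD3 and 14.0% of DT40 peaks shared. A reciprocal overlap of 50% gave 10.8% of sites in all 3 lists and 85.7% of HD3 peaks shared in the excess. Leaving out long peaks, an excess at 1.5 times and midpoints within 500 bp moved no value beyond these limits. What caused the other shifts was not tested, and shares of sites under these settings were computed for chromosome 2 alone. The end of the excess stayed within 1 Mb in every setting. It was the last peak of the lists compared each time, so this says little about its position. The series holds no read counts here, no replicates and no input library from DT40. Differences in binding therefore cannot be told apart from other differences between the libraries, calling depth among them.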

Other observations

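Along the chromosome, windows rich in CTCF peaks in one library tended to be rich in the others, less so for DT40. Across the 149 windows of 1 Mb, Spearman's rho between induced and non-induced HD3 peak counts was 0.83, and between DT40 and non-induced HD3 it was 0.47. Within the first segment the latter was 0.83 over 35 windows, and within the middle segment 0.63 over 100 windows. The libraries were compared over the same stretches of sequence, whose base composition and gene content were not taken into account, so these are descriptions. Non-induced HD3 had no peak in 7 windows and induced HD3 in 18, whereas DT40 had none in 1.

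Sites called in DT40 alone were mostly more than 10 kb away from erythroid sites. Their median distance to the nearest HD3 peak of either state was 27.4 kb in the first segment, 53.2 kb in the middle and 46.6 kb in the last, against 33.7 kb on chromosome 1 and 33.0 kb on chromosome 3. Those within 10 kb of an HD3 peak were 19.3%, 15.1% and 14.5% in the 3 segments, and 20.2% and 16.8% on chromosomes 1 and 3. HD3 density differs between these stretches and sets part of the distance, which was not adjusted for.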
